A study of Mus musculus with 60 samples.

Results

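Of the 770 genes on the nanoString nCounter Mouse Neuroinflammation Panel, 9 genes for glutamate receptors and vesicular glutamate transporters were picked out by gene symbol. They are the vesicular glutamate transporters Slc17a7 and Slc17a6, the AMPA receptor subunits Gria1, Gria2 and Gria4, the NMDA receptor subunits Grin2a and Grin2b, and the metabotropic receptors Grm2 and Grm3. All 9 were tested in each of 24 comparisons. The RNA came from the hippocampus (HPC), hypothalamus (HYP) and brain stem (BS) of 20 female Balb/C mice, 13 weeks old at collection, kept under 14 h of light and 10 h of dark and perfused with PBS. Tumor-bearing mice carried tumors grown in the inguinal mammary glands from injected 67NR, a murine carcinoma line that does not metastasise and comes from a single tumor, and vehicle injected mice received the culture medium DMEM alone. Tissue was taken 25 days after injection at zeitgeber time 19 (mid-dark) or 7 (mid-light), with 5 mice in each of the 4 groups, so that every mouse could give up to 3 samples. Values of 56 samples were analysed, 20 of HPC, 17 of HYP and 19 of BS. The HYP groups held 3 vehicle mid-dark, 4 vehicle mid-light, 5 tumor mid-dark and 5 tumor mid-light samples, and the BS vehicle mid-dark group held 4.

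Glutamate is the main excitatory transmitter of the brain. It is packed into synaptic vesicles by vesicular transporters, of which Slc17a7 (VGLUT1) is typical of cortical and hippocampal neurons and Slc17a6 (VGLUT2) of diencephalic and brain stem neurons. Released glutamate opens AMPA receptors, which carry fast transmission, and NMDA receptors, which admit calcium and take part in plasticity. Grm2 and Grm3 are G protein coupled receptors that lower cAMP, and Grm3 is also expressed by glia.

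The loci, as RefSeq places them on GRCm38.p6, lie on 7 chromosomes. Slc17a7 is at chr7:45163921-45176139 and Slc17a6 at chr7:51621830-51671126. Gria1 is at chr11:57011571-57330244, Gria2 at chr3:80681450-80804227 and Gria4 at chr9:4417893-4796234. Grin2a is at chr16:9567901-9996083 and Grin2b at chr6:135713221-136173615. Grm2 is at chr9:106644534-106656109 and Grm3 at chr5:9485236-9725352.

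The 250 bases before the start of each vesicular transporter gene are shown because these 2 genes had opposite regional patterns. Both are on the + strand of GRCm38.p6, the Slc17a7 window at chr7:45163671-45163920 and the Slc17a6 window, of the first of 2 annotated starts, at chr7:51621580-51621829. Capitals mark the GC box GGGCGG on either strand.
Slc17a7: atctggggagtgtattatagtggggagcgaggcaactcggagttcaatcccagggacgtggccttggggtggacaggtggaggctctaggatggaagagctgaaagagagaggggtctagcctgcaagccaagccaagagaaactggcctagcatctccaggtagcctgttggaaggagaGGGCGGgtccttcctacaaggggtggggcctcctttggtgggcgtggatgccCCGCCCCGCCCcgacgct
Slc17a6: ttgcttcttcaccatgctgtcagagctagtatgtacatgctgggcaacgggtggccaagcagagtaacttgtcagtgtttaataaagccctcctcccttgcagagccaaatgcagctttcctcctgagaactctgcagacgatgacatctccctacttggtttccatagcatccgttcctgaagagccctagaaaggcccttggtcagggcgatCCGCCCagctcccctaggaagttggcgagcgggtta
The GC box began 70, 18 and 13 bases before the Slc17a7 start, the last pair sharing 1 letter, and 36 bases before the Slc17a6 start, and 32.7% of 32851 RefSeq windows of this length hold it. Windows were given for 6 of the 9 genes, and among them Grm2 held 3 GC boxes, Grm3 held 1, and Gria2 and Gria4 held none. The E-box CACGTG, which 6.02% of all windows hold, and the cAMP response element TGACGTCA, which 1.55% hold, were in none of the windows of these genes, searched on both strands.

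The values are log2 levels that the authors background-corrected, normalised and quantile normalised. Levels of different genes come from different probes and were not compared with each other. Sample medians lay between 8.07 and 8.09, the table spanned -0.37 to 15.36, and the 9 genes spanned 4.85 to 13.41. The regional labels were set against marker genes. Tbr1, a transcription factor of cortical and hippocampal excitatory neurons, spanned 7.63 to 8.94 in HPC, 3.73 to 5.98 in HYP and 2.87 to 5.42 in BS. It was 1 of 5 forebrain neuron genes listed, and the others did not all follow it. At an adjusted p under 0.05 (limma), 2 of the 5 were higher and 2 lower in HPC than in HYP. Against BS, 3 were higher and 1 lower in HPC. Dlx1 and Dlx2 were lower in HPC than in HYP (log2 differences -1.11 and -0.91), and Eomes was lower in HPC than in BS (-0.84). Hdc, the enzyme that makes histamine, spanned 8.27 to 9.78 in HYP, 3.88 to 5.00 in HPC and 4.59 to 7.09 in BS. The BS sample of tumor mid-dark mouse 11 stood apart, with the highest Hdc of that region (7.09, next 5.59) and the highest Dlx1, a gene of forebrain inhibitory neurons (5.87, next 3.96). Ttr, the main transcript of choroid plexus, ranged from 5.36 to 14.71 in HPC and 6.49 to 13.77 in BS but from 4.33 to 5.34 in HYP.

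The first question was where in the brain each gene was high. Regional differences are from one limma model over all 56 samples, with the mouse as a block and Benjamini-Hochberg adjustment over 770 genes, and a gene was called at an adjusted p under 0.05. Between HPC and HYP all 9 genes were called, 7 higher in HPC (30.3% of all genes were) and 2 lower (41.4% of all genes). Differences of at least 1 log2 unit were called for 7 of the 9, against 9.87% of all genes. Between HPC and BS 8 of 9 were called, 6 higher in HPC (34.9% of all genes) and 2 lower (41.7%), and all 8 differed by at least 1 log2 unit, against 15.2% of all genes. Between HYP and BS 8 of 9 were called, 4 higher in HYP (36.1% of all genes) and 4 lower (30.4%), and 5 differed by at least 1 log2 unit, against 6.10% of all genes. The median size of the difference over the 9 genes was 1.26, 2.30 and 1.04 log2 units in the 3 comparisons, in that order, and 0.26, 0.33 and 0.23 over all genes. The ranges over all samples of 2 regions did not overlap for 7 of the 9 genes between HPC and HYP (19.7% of all genes), 8 between HPC and BS (26.2%) and 5 between HYP and BS (15.6%). In bulk tissue, fewer cells of a type and less RNA per cell cannot be told apart.

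**Figure D1:**
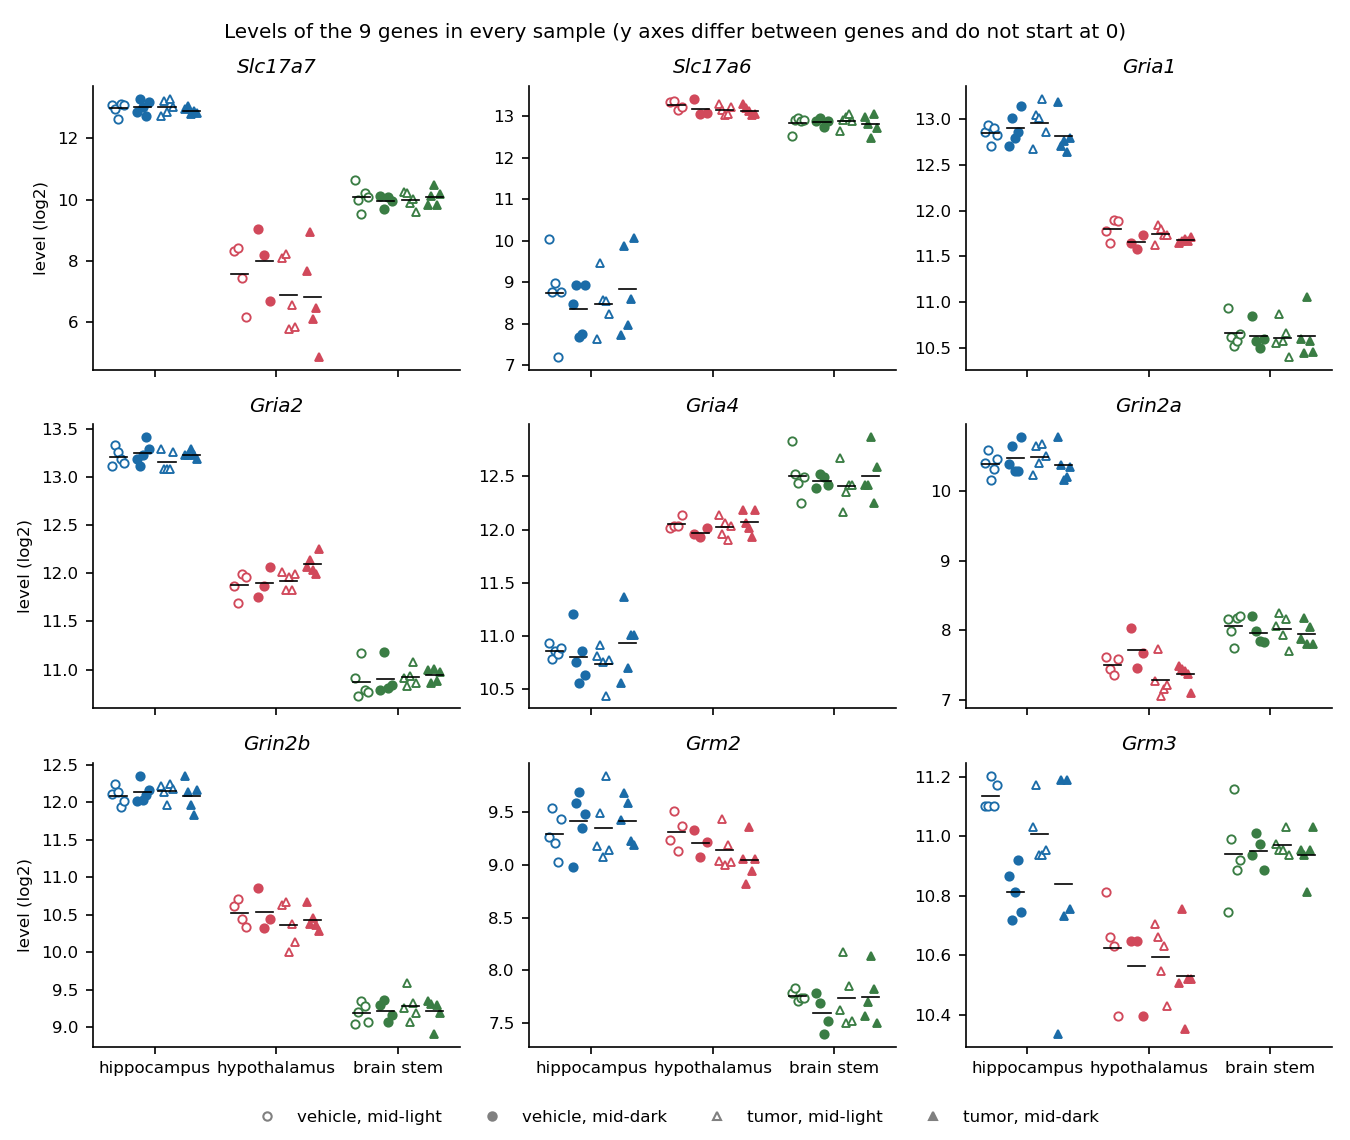
Each panel plots 1 gene, with the log2 level on the y axis and the samples grouped by region on the x axis, circles for vehicle injected and triangles for tumor-bearing mice, open for mid-light and filled for mid-dark, and a line at each group mean. The regions separate in most panels, Slc17a7 in HYP (4.85 to 9.05) and Slc17a6 in HPC (7.20 to 10.06) are spread widely, and the 4 groups of a region overlap for most genes.

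The vesicular transporters had the widest regional contrasts. Slc17a7 had a median of 12.99 in HPC (12.65 to 13.29, n = 20), 10.07 in BS (9.52 to 10.63, n = 19) and 7.43 in HYP (4.85 to 9.05, n = 17). No sample of one region overlapped with a sample of another. The level in HPC was 51.0-fold that in HYP (95% interval 37.3 to 69.8, log2 difference 5.67 ± 0.22 SE, adjusted p = 2.1e-27), and 1 other gene of the panel, Ttr, had a larger difference there. HPC was 7.72-fold above BS (2.95 ± 0.21, adjusted p = 2.7e-17), and HYP was lower than BS by a log2 difference of -2.72 ± 0.23 (adjusted p = 8.0e-15). Within mice, HPC exceeded HYP in 17 of 17, by 3.82 to 7.98 log2 units.

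Slc17a6 was ordered the other way. Its median was 13.15 in HYP (13.01 to 13.41, n = 17), 12.87 in BS (12.46 to 13.04, n = 19) and 8.59 in HPC (7.20 to 10.06, n = 20). HPC lay below the other regions in every mouse, with HPC minus HYP between -5.95 and -2.98 log2 units, and the ranges were far apart. The level was 23.8-fold higher in HYP than in HPC (95% interval 18.8 to 30.0, adjusted p = 8.1e-29) and 18.8-fold higher in BS than in HPC (15.1 to 23.5, adjusted p = 1.6e-28). HYP and BS overlapped. Their difference of 0.34 ± 0.17 was not called over the 3 regions (adjusted p = 0.076), where the spread of the HPC samples enters the error, and was called when only HYP and BS were fitted (0.34, adjusted p = 3.2e-07), a fit added after the data were seen. HYP was the higher of the pair in 14 of 16 mice, and in 1 of the other 2 both regions had the same value.

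The 3 AMPA subunits fell into opposite orders. Gria1, which carries much of the activity-driven insertion of AMPA receptors in HPC, had medians of 12.87 in HPC (12.65 to 13.22), 11.71 in HYP (11.59 to 11.90) and 10.58 in BS (10.40 to 11.06). Gria2, the subunit whose edited form makes the channel largely impermeable to calcium, had medians of 13.22 in HPC (13.08 to 13.41), 11.99 in HYP (11.69 to 12.25) and 10.89 in BS (10.73 to 11.19). Neither gene had overlapping ranges between any 2 regions. Gria1 was 2.24-fold (95% interval 2.09 to 2.41) and Gria2 2.39-fold (2.27 to 2.52) higher in HPC than in HYP, and 4.77-fold (4.46 to 5.10) and 4.91-fold (4.67 to 5.17) higher in HPC than in BS. HYP exceeded BS by 1.09 ± 0.05 log2 units for Gria1 and 1.04 ± 0.04 for Gria2 (adjusted p = 4.9e-24 and 4.0e-28). The 3 differences of Gria1 and Gria2 had the same sign in every mouse with both regions.

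Gria4, a subunit that gives AMPA receptors fast kinetics, was lowest where Gria1 and Gria2 were highest. Its median was 10.82 in HPC (10.44 to 11.37), 12.04 in HYP (11.90 to 12.18) and 12.42 in BS (12.16 to 12.87). HPC was below HYP in 17 of 17 mice and below BS in 19 of 19. The level was 2.29-fold higher in HYP than in HPC (95% interval 2.11 to 2.47, adjusted p = 3.5e-24) and 3.11-fold higher in BS than in HPC (2.88 to 3.35, adjusted p = 9.8e-31). HYP and BS ranges met, but BS was higher in 16 of 16 mice, with HYP minus BS between -0.85 and -0.20 log2 units within mice (fit -0.44 ± 0.06, adjusted p = 3.8e-09).

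Both NMDA receptor subunits were highest in HPC and differed in which region was lowest. Grin2a, the subunit that increases as synapses mature, had medians of 10.39 in HPC (10.16 to 10.77), 7.99 in BS (7.70 to 8.25) and 7.45 in HYP (7.07 to 8.03). It was 7.79-fold higher in HPC than in HYP (95% interval 7.16 to 8.49, adjusted p = 7.3e-39) and 5.40-fold higher than in BS (4.97 to 5.86, adjusted p = 1.2e-36). HYP was below BS in 16 of 16 mice although the ranges overlapped (-0.53 ± 0.06, adjusted p = 2.2e-10). Grin2b, which is prominent early in development and stays high in the forebrain, had medians of 12.14 in HPC (11.83 to 12.36), 10.44 in HYP (10.00 to 10.86) and 9.26 in BS (8.91 to 9.59), with no overlap between regions. HPC was 3.14-fold above HYP (2.91 to 3.38) and 7.42-fold above BS (6.90 to 7.98), and HYP was 2.37-fold above BS (2.19 to 2.56, adjusted p = 8.7e-25).

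The ranges of both metabotropic receptors overlapped between HPC and HYP. Grm2, a presynaptic brake on glutamate release, had medians of 9.38 in HPC (8.98 to 9.84), 9.13 in HYP (8.82 to 9.51) and 7.71 in BS (7.40 to 8.17). BS was below both, 3.15-fold against HPC (2.88 to 3.44) and 2.76-fold against HYP (2.52 to 3.03). HPC and HYP overlapped, with HPC higher in 15 of 17 mice and a difference of 0.19 ± 0.07 (adjusted p = 0.0089) that fell to 0.09 (adjusted p = 0.37) in vehicle injected mice alone. Grm3, found on neurons and astrocytes, had medians of 10.95 in HPC (10.34 to 11.20), 10.63 in HYP (10.35 to 10.81) and 10.95 in BS (10.75 to 11.16). All 3 ranges overlapped. HYP was 1.29-fold lower than HPC (1.21 to 1.38, adjusted p = 1.3e-09) and 1.29-fold lower than BS (1.21 to 1.38, adjusted p = 2.5e-09). The HPC minus BS difference was -0.00095 with a 95% interval of -0.09 to 0.09 (adjusted p = 0.99), and HPC was the higher in 10 of 19 mice.

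**Figure D2:**
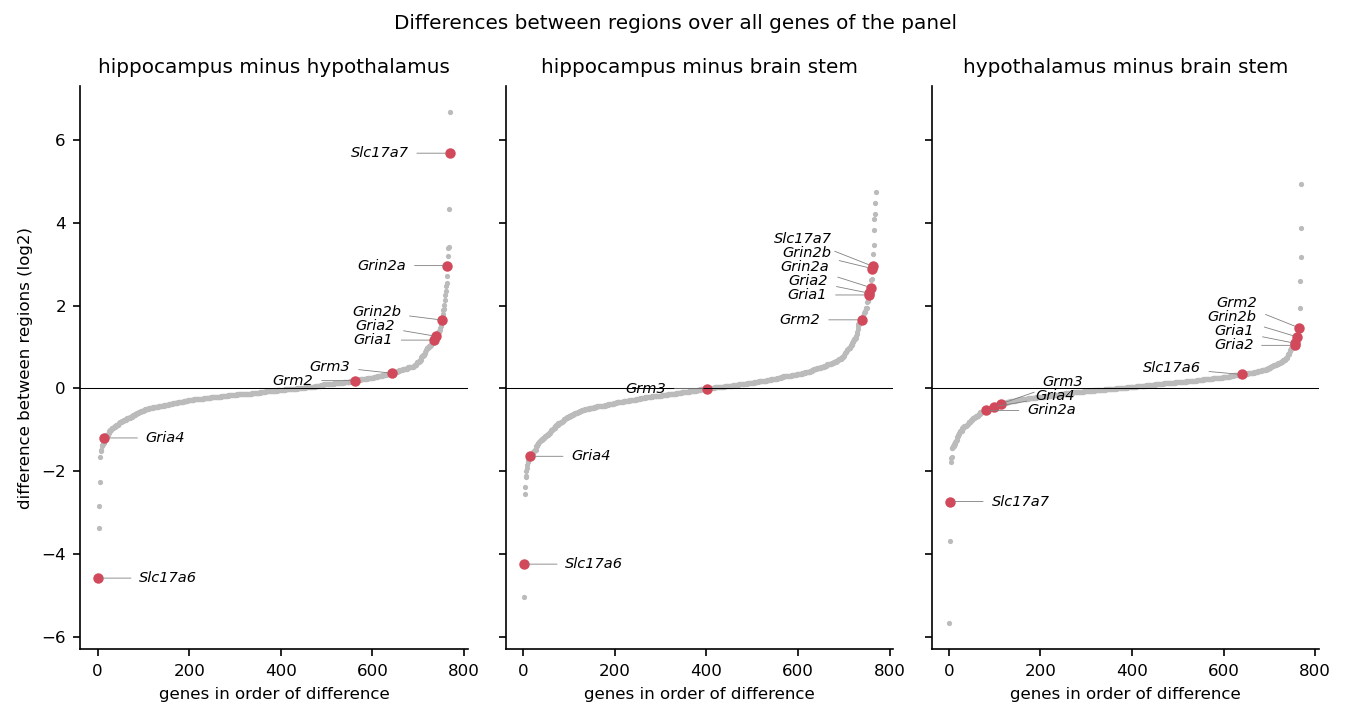
For each pair of regions, the 770 genes are placed in order of their log2 difference (y axis, grey points) with the 9 glutamate genes in red. Slc17a7 and Slc17a6 lie at opposite ends for HPC minus HYP (5.67 and -4.57), and Grm3 lies near 0 for HPC minus BS.

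Other synaptic genes on the panel did not share one regional direction. The counts below are of genes called at an adjusted p under 0.05 (limma). Over all genes, 30.3% were called higher and 41.4% lower in HPC than in HYP. Against BS, 34.9% were higher and 41.7% lower in HPC, and 36.1% higher and 30.4% lower in HYP. Slc1a3, the astrocyte carrier that takes up glutamate, was 1.72-fold higher in HPC than in BS, 2.00-fold higher in HYP than in BS and 1.16-fold lower in HPC than in HYP. Of 18 postsynaptic scaffold and calcium or cAMP signalling genes, 9 were higher and 8 lower in HPC than in HYP, 10 higher and 6 lower in HPC than in BS, and 14 higher and 3 lower in HYP than in BS. Nrgn, a calmodulin-binding protein of dendrites, was 9.19-fold and 22.3-fold higher in HPC than in HYP and BS, and Ppp3ca, a calcineurin catalytic subunit, 5.58-fold and 5.24-fold. Prkacb, a catalytic subunit of protein kinase A, was 2.43-fold lower in HPC than in HYP. Of 10 presynaptic and general neuron genes, 5 were higher and 4 lower in HPC than in HYP, and 5 higher and 5 lower in HPC than in BS. Nptx1, a pentraxin that clusters AMPA receptors, was 5.11-fold higher in HPC than in HYP, while the neuronal tubulin Tubb3 was 2.22-fold lower. Of 7 activity induced genes, 4 were higher and 2 lower in HPC than in HYP. Arc and Bdnf were 6.59-fold and 2.64-fold higher in HPC than in HYP, and Fos was 1.95-fold lower. Of 13 reference genes, used here for an alternative scaling, 1 was higher and 7 lower in HPC than in HYP. Against BS, 6 of them were higher and 5 lower in HPC, and 8 higher and 2 lower in HYP. Oligodendrocyte markers were lower in HPC and HYP than in BS for all 9 genes of the list, and the part this plays in the regional differences was not tested.

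Over the 12 means of region, tumor status and phase, the panel genes whose levels ran most like each glutamate gene were named by Pearson r, as a description. Gria1 and Gria2 each had Hrk and Grin2b among their 3 closest genes (r from 0.996 to 0.997), and Grin2b had Hrk and Gria2 (0.998 and 0.996). Slc17a7 was closest to Il1rap, Rbfox3 and Relb (0.982 to 0.991), Slc17a6 to Arhgap24, Cd83 and Prkaca (0.993 to 0.997), Gria4 to Lamp1, Pink1 and Lgmn (0.994 to 0.995), Grin2a to Parp1, Xpnpep1 and Nptx1 (0.989 to 0.995), Grm2 to Kdm5b, Ldha and Parp2 (0.987 to 0.992), and Grm3 to Serpinf1, Pole and Ttr (0.922 to 0.947). These 12 points are 3 regions in 4 groups, so the values mostly restate regional order. Over the deviations of the 56 samples from their group means, likeness was lower, with r = 0.78 for Grin2b and Pik3cd, 0.73 for Slc17a7 and Rtn4rl1, 0.73 for Grin2a and Iqsec1, 0.71 for Grm2 and Prkce, 0.69 for Gria4 and Dlg1, 0.68 for Gria2 and Nlgn1, 0.65 for Gria1 and Cotl1, 0.56 for Slc17a6 and Vegfa and 0.56 for Grm3 and Mef2c.

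The next question, the study's own, was whether mammary tumors altered these genes in the brain and whether time of day mattered. Within each region a limma model with the 4 group means was fitted. Over both phases, tumor status was called for none of the 9 genes in HPC (0.520% of all genes were called), HYP (0.260%) or BS (1.04%), and 1 of these 27 tests had an unadjusted p under 0.05. At mid-dark none was called in HPC (0.130% of all genes), HYP (0%) or BS (0.260%). At mid-light none was called in HPC (0.130%), HYP (0%) or BS (0.780%). Of the 54 tests at a single phase, 2 had an unadjusted p under 0.05. Leaving aside Slc17a7 in HYP and Slc17a6 in HPC, where the spread was wide, the differences at a single phase lay between -0.36 and 0.20 log2 units, and their 95% intervals reached from -0.67 to 0.53.

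**Figure D3:**
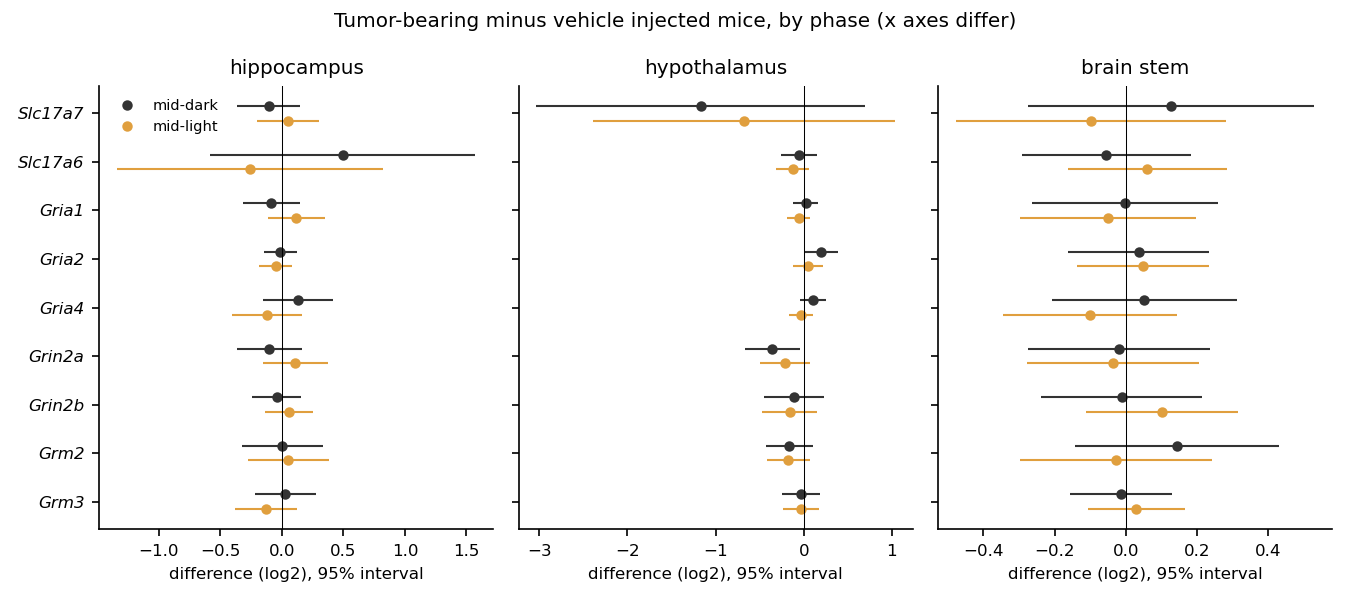
Points are log2 differences between tumor-bearing and vehicle injected mice (x axis) for each gene (y axis) at mid-dark and mid-light, and bars are 95% intervals, with 1 panel per region. Intervals are widest for Slc17a7 in HYP and Slc17a6 in HPC, and those of Grin2a and Gria2 at mid-dark in HYP do not reach 0.

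The lowest unadjusted p for tumor status belonged to Grin2a in HYP. At mid-dark the vehicle injected mice had 7.46, 7.68 and 8.03, and the tumor-bearing mice 7.11, 7.38, 7.42, 7.45 and 7.48. At mid-light the vehicle injected mice had 7.36, 7.45, 7.59 and 7.63, and the tumor-bearing mice 7.07, 7.16, 7.22, 7.28 and 7.73. Most tumor samples lay below the vehicle samples of their phase, with overlap in both. The difference over both phases was -0.29 ± 0.10 (95% interval -0.50 to -0.07), which failed the adjustment (limma, adjusted p = 0.37), and at mid-dark it was -0.36 ± 0.15 (adjusted p = 0.89). The summed oligodendrocyte markers, 9 genes, spanned 15.44 to 16.12 (median 16.025) in vehicle injected and 15.39 to 16.07 (median 15.691) in tumor-bearing HYP. In the same order, the absorbance ratio that reads salt and phenol carry-over in the RNA spanned 1.76 to 2.19 (median 2.06) and 0.44 to 2.17 (median 1.98). Hdc spanned 8.27 to 9.60 (median 8.96) in vehicle injected and 8.63 to 9.78 (median 9.25) in tumor-bearing HYP, a difference of 0.26 ± 0.20 (limma, adjusted p = 0.79). Grin2a was low in HYP where Hdc was high (r = -0.71, permutation p = 0.00136, adjusted p = 0.0148, rho = -0.682, permutation p = 0.00309, adjusted p = 0.0396, n = 17, adjusted over 141 relations), with r = -0.544 without the 2 samples farthest in Hdc. The relation took all 17 samples without regard to tumor status or phase, so differences between the groups enter it. The part of these measures in the Grin2a difference was not tested. The tumor difference of Grin2a was 0.28 ± 0.12 higher in HPC than in HYP and -0.25 ± 0.12 in HYP minus BS, with adjusted p values of 0.729 and 0.999.

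Gria2 in HYP was the other gene with an unadjusted p under 0.05. At mid-dark it measured 11.76 to 12.06 in 3 vehicle injected and 11.99 to 12.25 in 5 tumor-bearing mice, which overlap (0.20 ± 0.09, limma, adjusted p = 0.90). At mid-light the difference was 0.05 ± 0.08. Slc17a7 in HYP had the largest difference in size. In the dark phase vehicle injected mice had 6.69, 8.20 and 9.05, and tumor-bearing mice 4.85, 6.11, 6.47, 7.68 and 8.94. The groups overlapped over most of their range, and the difference of -1.17 ± 0.87 had a 95% interval of -3.03 to 0.69 (adjusted p = 0.98). Slc17a6 in HPC differed by 0.49 ± 0.51 in the dark, and by -0.26 ± 0.51 in the light, with both intervals across 0.

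Phase was called for none of the 9 genes in HPC, where 5.59% of all genes were called, in HYP (2.34%) or in BS (4.94%), and 2 of these 27 tests had an unadjusted p under 0.05. Grm3 in HPC had the lowest. Its levels in vehicle injected mice in the dark were 10.72, 10.75, 10.81, 10.87 and 10.92, and those in the light 11.10, 11.10, 11.10, 11.17 and 11.20. These groups did not overlap. Tumor-bearing mice had 10.34, 10.73, 10.76, 11.19 and 11.19 in the dark, and 10.94, 10.94, 10.95, 11.03 and 11.17 in the light, where the phases overlapped because 2 of the mid-dark mice, 7 and 19, had 11.19. Over both tumor groups, mid-dark minus mid-light was -0.24 ± 0.08 (95% interval -0.42 to -0.07), and limma's adjusted p was 0.11. It became 0.045 without mouse 7 and 0.031 without mouse 19, with a difference of -0.29 in each case. In the same HPC samples 4 of 9 oligodendrocyte markers were called lower at mid-dark, led by Opalin (-1.07, adjusted p = 4.9e-06), and the summed level of the list spanned 14.46 to 15.56 in the dark, and 15.15 to 15.79 in the light. The HPC sample of mouse 7, with Grm3 at 11.19, was the lowest for every oligodendrocyte marker and for Ttr (5.36). It was also the highest for Tbr1 (8.94, next 8.49) and Reln (9.49, next 8.92), though not for Eomes, Dlx1 or Dlx2. No astrocyte marker of 8 was called (2 had an unadjusted p under 0.05). Their summed levels were 13.78 to 14.04 (median 13.87) in the dark and 13.81 to 14.05 (median 13.97) in the light. Over the deviations of the 56 samples from their group means, the astrocyte marker Aldh1l1 was among the 3 genes closest to Grm3 (r = 0.545). The part of either cell type in the Grm3 values was not tested.

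**Figure D4:**
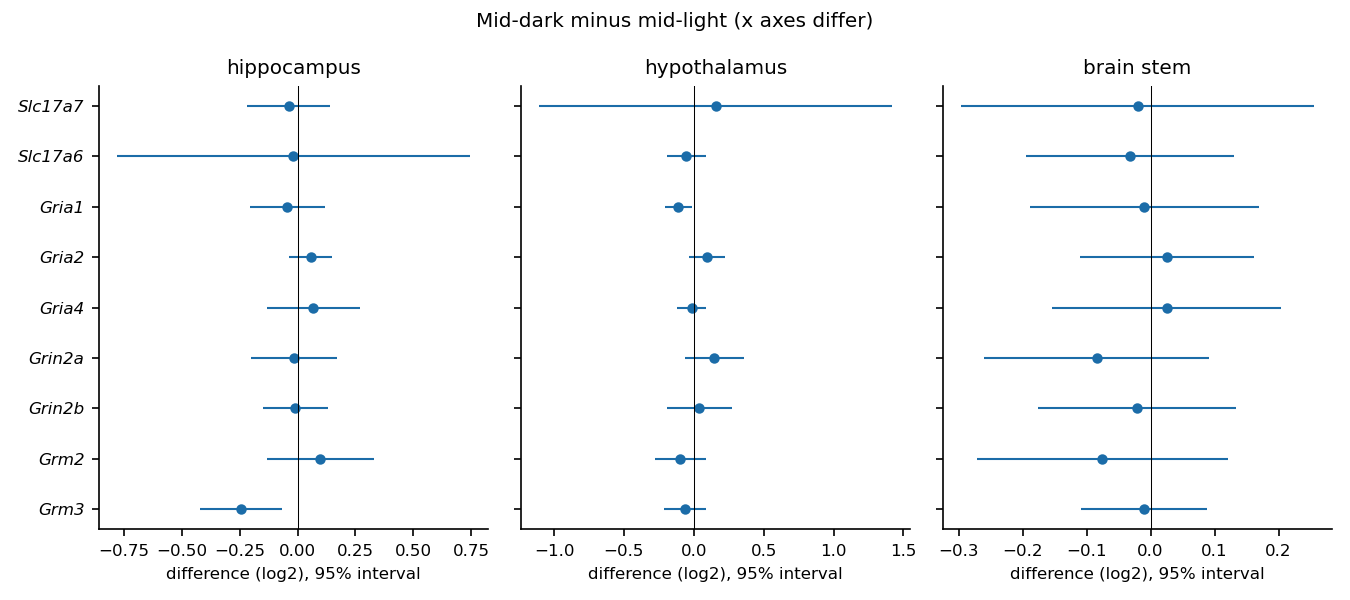
Points are log2 differences, mid-dark minus mid-light over both tumor groups (x axis), for each gene (y axis), bars are 95% intervals, and each panel is a region. Grm3 in HPC (-0.24) and Gria1 in HYP (-0.11) have intervals that do not reach 0, and neither passed the adjustment.

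Gria1 in HYP was the second gene with an unadjusted p under 0.05 for phase, with 11.59 to 11.73 in 8 mid-dark and 11.63 to 11.90 in 9 mid-light samples (-0.11 ± 0.04, limma, adjusted p = 0.29). In BS every phase difference of the 9 genes lay between -0.08 and 0.03. Among activity induced genes, by contrast in the same samples, Egr1 was called lower at mid-dark in HYP (-1.03 ± 0.15, adjusted p = 0.00083), and Bdnf (0.35) and Jun (0.33) were called higher at mid-dark in BS. None of the postsynaptic or presynaptic genes listed was called for tumor status or phase in any region, and at most 3 of a list had an unadjusted p under 0.05 in 1 comparison.

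The interaction of tumor status and phase was called for none of the 9 genes, nor for any gene of the panel, in HPC, HYP or BS (0% in each), and none of the 27 tests of these genes had an unadjusted p under 0.05. Whether tumor or phase differences varied between regions was tested in the model over all samples. Tumor differences between HPC and HYP, HPC and BS, and HYP and BS were called for none of the 9 genes (0% of all genes in each), and 2 of 27 tests, both of Grin2a, had an unadjusted p under 0.05. Phase differences were called for none of the 9 between HPC and HYP (0.390% of all genes), HPC and BS (0.130%) or HYP and BS (0%). The 1 test with an unadjusted p under 0.05 was that of Grm3 in HPC minus BS (-0.23 ± 0.09, limma, adjusted p = 0.53).

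The wide spread of Slc17a7 in HYP and Slc17a6 in HPC was set against the mouse number in the labels, a relation noticed in Slc17a7 of HYP and then computed for all 9 genes in 3 regions, 27 relations in all. Each relation took all samples of a region without regard to tumor status or phase. Over all 20 mice the numbers ran from 1 to 32, and each of the 4 groups spanned low and high numbers (medians 9 to 12). HYP lacked values of vehicle injected mice 10, 12 and 32, so these medians are not those of its samples. In HYP, Slc17a7 was lower at higher numbers (Pearson r = -0.70, permutation p = 0.0024, adjusted p = 0.040, Spearman rho = -0.70, permutation p = 0.0025, adjusted p = 0.032, n = 17), and r was -0.65 without the 2 mice farthest from the median number. Grm3 in HYP ran the same way (r = -0.68, permutation p = 0.0029, adjusted p = 0.040, rho = -0.72, permutation p = 0.0015, adjusted p = 0.032), with r = -0.57 without 2 mice. Grin2b in HYP had r = -0.56 (permutation p = 0.019, adjusted p = 0.18) and rho = -0.68 (permutation p = 0.0036, adjusted p = 0.032). No relation in HPC or BS passed the adjustment, and Slc17a6 in HPC had r = -0.11 (permutation p = 0.63) and rho = -0.04 (permutation p = 0.86). With the mouse number as a covariate the tumor difference of Slc17a7 in HYP over both phases was -1.13 instead of -0.92 (adjusted p = 0.31 and 0.78). What the numbers stand for beyond the animal is not given in the sources used here.

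**Figure D5:**
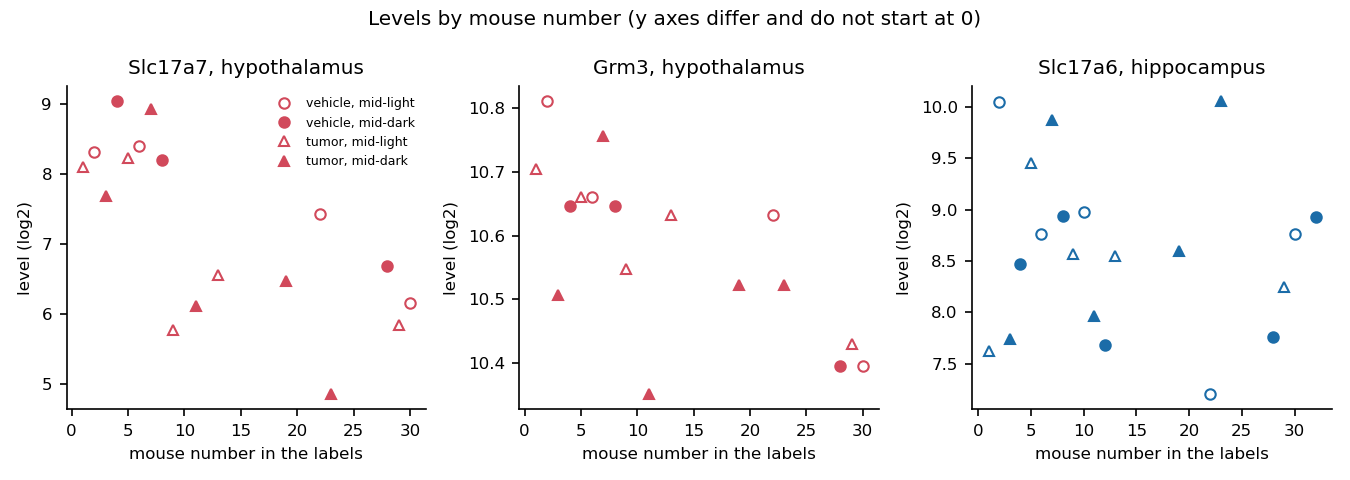
Each point is 1 sample, with its mouse number on the x axis and its log2 level on the y axis, circles for vehicle injected and triangles for tumor-bearing mice, open for mid-light and filled for mid-dark. Slc17a7 and Grm3 in HYP fall with mouse number (r = -0.70 and -0.68), and Slc17a6 in HPC does not follow it (r = -0.11).

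Levels within each region were also set against each other for all 36 pairs of the 9 genes, and against Hdc (all 9 genes), Tbr1 (Slc17a7) and Ttr (Slc17a6), 141 relations in all, computed after some had been noticed in these data. They too took all samples of a region without regard to tumor status or phase, so differences between the groups enter them. Of the 141 relations, 32 had an adjusted p under 0.05 for r and 14 for rho. The largest r in size was that of Gria1 and Grin2a in HPC (r = 0.867, permutation p = 1.0e-05, adjusted p = 0.00141, n = 20). Their rho was 0.84 (permutation p = 3.0e-05, adjusted p = 0.00211), and r was 0.826 without the 2 samples farthest in Gria1. In HYP, Slc17a7 was low where Hdc was high (r = -0.84, permutation p = 3.0e-05, rho = -0.89, permutation p = 2.0e-05, adjusted p = 0.00211 for each, n = 17), and r was -0.81 without the 2 samples farthest in Hdc. Grin2b in HYP ran the same way against Hdc (r = -0.835, permutation p = 8.0e-05, adjusted p = 0.00282, rho = -0.786, adjusted p = 0.0132). So did Grm3 by r (r = -0.634, permutation p = 0.00691, adjusted p = 0.0406), while rho missed the adjustment (rho = -0.637, adjusted p = 0.0568). Gria1, Gria2 and Gria4 had r from 0.284 to 0.467 with Hdc in HYP, and none passed the adjustment. In HPC, Slc17a7 and Hdc had r = 0.034 (permutation p = 0.886, adjusted p = 0.954) and rho = -0.125 (permutation p = 0.597, adjusted p = 0.72, n = 20), with r = -0.456 without 2 samples. In BS the same relation was r = 0.588 (permutation p = 0.00741, adjusted p = 0.0418) and rho = 0.583 (permutation p = 0.00998, adjusted p = 0.0614, n = 19), with r = 0.412 without 2 samples, 1 of which is the sample of mouse 11. The sign of the relation thus differed between HYP and BS, and the difference itself was not tested. By the same permutation test, Slc17a7 was high where Tbr1 was high in HPC (r = 0.591, adjusted p = 0.0383, rho = 0.613, adjusted p = 0.0476). The same held in HYP (r = 0.622, adjusted p = 0.0425, rho = 0.674, adjusted p = 0.0436), and in BS r was -0.0228 (adjusted p = 0.967) and rho -0.248 (adjusted p = 0.482). Slc17a6 and Ttr had r = 0.1 in HPC, -0.284 in HYP and -0.0529 in BS, and none passed the adjustment by r or rho.

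Slc17a6 and Hdc had r = -0.544 in HYP (permutation p = 0.0237, adjusted p = 0.0955) and rho = -0.523 (permutation p = 0.0317, adjusted p = 0.138), with r = -0.528 without 2 samples. In BS they had r = -0.675 (permutation p = 0.00174, adjusted p = 0.0164) and rho = -0.588 (permutation p = 0.00913, adjusted p = 0.0613), with r = -0.433 without 2 samples. In HPC they had r = 0.0959 (permutation p = 0.688, adjusted p = 0.801), rho = -0.0684 (permutation p = 0.772, adjusted p = 0.844) and r = 0.0487 without 2 samples. Slc17a7 and Slc17a6 were high together in HYP by r (r = 0.617, permutation p = 0.00978, adjusted p = 0.0473), while rho missed the adjustment (rho = 0.622, permutation p = 0.00883, adjusted p = 0.0613), and r was 0.476 without the 2 samples farthest in Slc17a6. In BS the relation between the 2 transporters ran the other way (r = -0.749, permutation p = 0.0002, adjusted p = 0.00544, rho = -0.722, permutation p = 0.00071, adjusted p = 0.0165), with r = -0.522 without the 2 farthest samples. In HPC it was weak (r = 0.214, permutation p = 0.366, adjusted p = 0.506, rho = 0.223, permutation p = 0.343, adjusted p = 0.497), with r = 0.317 without 2 samples.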

How the data were processed

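The samples were grouped by region, tumor status and phase from their labels, with mice as replicates. The deposited table gives, for 770 genes, expression on a log2 scale. Per the methods, the authors processed nCounter counts in nSolver, where they subtracted a background from the negative controls and scaled to the positive controls and to the geometric mean of codeset genes, and then quantile normalized in Partek. Quantile normalization over samples of 3 regions gives every sample the same distribution, so differences are relative to the other genes of the panel. Samples the labels call outliers had been left out, and counts were not used, so depth is unknown and precision rests on the number of mice. The linear models (limma 3.58.1 in R 4.3.3) were tested on simulated data, with tables and permutation tests (100000 resamples, two-sided) in Python 3.11.15. The joint model had a mouse correlation of 0.14. A gene with 1 value throughout a region was not tested there. The 9 genes and the gene lists were chosen with earlier results of these data known. Genes named beside the 9 are, per list, up to 2 in each direction with the largest called regional difference, those called for tumor status or phase (up to 4), and the 3 closest genes by r. Some of these are given as counts only, and the rest of the list of other transmitter carriers is not reported here. The pairs and marker samples singled out were chosen after their values were seen.

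Alternatives were no replicate block or the block as a fixed term, vehicle injected mice only, genes with a mean of at least 5, median or reference gene scaling (13 genes), quantile normalization within a region, ordinary tests, only the groups compared, each mouse left out, and, added after the data were seen, only the 2 regions compared and the mouse number as a covariate.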

Additional observations from a re-analysis of the deposited data

Results flagged for a closer look

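In 99 sets of 4 or 5 samples (9 genes in 11 groups), 5 had a sample whose gap to the others was large against the range of its group, where chance gives about 4.95. In BS, Slc17a6 of vehicle mid-light mouse 2 was 12.52 (the others 12.87 to 12.94), Gria1 of tumor mid-dark mouse 11 was 11.06 (10.44 to 10.59), and Gria2 of vehicle mid-dark mouse 12 was 11.19 (10.79 to 10.84). In HPC, Gria1 of tumor mid-dark mouse 3 was 13.19 (12.65 to 12.80). In HYP, Grin2a of tumor mid-dark mouse 23 was 7.11 (7.38 to 7.48). Mouse 11 also had the Hdc and Dlx1 values in BS that stood apart, and without it Gria1 was 2.28 higher in HPC than in BS and 1.11 higher in HYP than in BS, against 2.25 and 1.09 with it.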

How the results depend on the processing

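The 27 regional differences of the 9 genes were each recomputed under 27 alternatives, and of 729 values 717 kept direction and call, with 24 differences doing so throughout. Grm3 in HPC minus BS, near 0, turned sign in vehicle injected mice only (0.029) and spanned -0.023 to 0.032 with single mice left out. The counts of genes called between regions kept to 9, 8 and 8 with each mouse left out and with no replicate block or the replicate block as a fixed term. The block changed no call. With the replicate block and only 2 regions, HYP and BS gave 9, and HPC and HYP gave 8 in vehicle injected mice. For tumor, phase and interaction the replicate number is the mouse, which lies in 1 group, so no block could be fitted within a region. Phase in HPC gave 0 to 1 with single mice left out (1 without mouse 7 or 19). At an ordinary unadjusted p under 0.05, the most permissive of the 3 filters in the methods, the counts were 1 for phase in HPC (Grm3), 1 for phase in HYP (Gria1), 1 for tumor status over both phases in HYP (Grin2a) and 2 at mid-dark in HYP (Gria2, Grin2a). The other 2 filters, log2 fold change beyond 2 SD of the mean over all genes, alone or with that p, were not applied. By size of the tumor difference, Slc17a7 in HYP ranked 2 of 770 genes at mid-dark and 10 at mid-light. Slc17a6 in HPC ranked 24 of 769 at mid-dark and 91 at mid-light. Scaling to reference genes moved the median of all genes for HYP minus BS from 0.02 to -0.11 and turned no called difference. With 3 vehicle mid-dark samples in HYP, the standard error there reached 0.87 log2 units for Slc17a7.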
